A study of Mus musculus with 6 samples.

Results

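The matrix metalloproteinases (Mmp), the Adamts proteases and the tissue inhibitors of metalloproteinases (Timp) were examined in the RNA-seq of the aging mouse cortex. The members were all genes whose symbol was Mmp, Adamts or Timp followed by a number (Timp1 to Timp4, and Mmp symbols also with a final a or b), which gave 46 of the 55421 genes in the deposited table: 23 Mmp, 19 Adamts and 4 Timp genes. Cerebral cortex had been dissected from male wild-type C57BL/6J mice, 3 of 6 months (mice 10, 11 and 17) and 3 of 24 months (mice 2, 4 and 5), and each library came from a different mouse. All 6 mice were anesthetized with isoflurane and then killed by cervical dislocation, and 10 ng of each cortex's RNA went into a library kit for low input. The comparison asks how the RNA of these genes differed between young adult and old adult cortex. Values per mouse are given in the order of mice 10, 11 and 17 and then of mice 2, 4 and 5.

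Mmp proteins are zinc endopeptidases that are made as inactive proenzymes and cut collagens, other matrix proteins, growth factors and receptors, either as secreted enzymes or anchored to the cell surface. The secreted Adamts proteases share their catalytic mechanism and include the enzymes that cleave aggrecan, brevican and versican, the proteoglycans of the brain matrix and of the perineuronal nets around neurons. Timp proteins block the active site of Mmp enzymes, and Timp3 also blocks several Adamts enzymes, so that proteolysis in the tissue depends on the balance of enzyme and inhibitor as well as on proenzyme activation.

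The libraries held 29495379 to 36494240 counts, with at least 1 count on 33974 to 35651 genes at 6 months and on 40208 to 43561 genes at 24 months. The TMM factors, which scale the libraries to each other, lay between 0.921 and 0.946 for the 6-month mice, below the 1.04 to 1.10 of the 24-month mice. The label of cortex was checked against marker genes: the 8 neuron markers summed to 4675 to 6159 TPM (transcript abundance corrected for gene length and library total), the 6 markers of striatal neurons summed to 124.6 to 185.2 TPM, and no gene of the 12 marker lists was at 0 in all 6 mice. In bulk tissue, fewer cells of a type and less RNA per cell cannot be told apart. Counts were made without regard to strand, so that reads from a gene and from an overlapping gene on the opposite strand cannot be separated. Each fold change is a log2 value for 24 against 6 months with its standard error (SE), from TMM-scaled counts and edgeR's quasi-likelihood test, with p-values adjusted over all 32905 genes tested by the Benjamini-Hochberg method (false discovery rate, FDR). TPM values are those deposited by the authors and carry no TMM scaling.

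At 1% FDR, a threshold of the study, none of the 44 members tested passed the quasi-likelihood test (0 members, and 0% of all genes higher or lower). The study itself did call genes at 1% FDR with edgeR after its own filter, and clustered those past a stricter FDR. It does not name the edgeR test, and the cause of this difference was not tested. At an unadjusted p under 0.05 the quasi-likelihood test had 9 members higher (background 17.6%) and 3 lower (background 13.1%). At 1% FDR, edgeR's likelihood ratio test had 3 members higher, Adamts12, Mmp12 and Mmp3 (background 4.41%), and 0 lower (background 0.766%), and DESeq2's Wald test had 1 of 43, Adamts12 (background 0.836%). The verbs rose and fell are therefore kept here for a second rule, 10% FDR. By that rule, 6 members rose (13.6% of 44, background 10.0%), namely Adamts12, Mmp12, Mmp3, Mmp10, Mmp1a and Mmp25, and 1 fell (2.27%, background 8.33%), namely Mmp16, which encodes a membrane-anchored Mmp. The likelihood ratio test at 10% FDR had 8 members higher (background 16.1%) and 1 lower (background 6.67%). The share that rose was near the background and the share that fell was below it. The calls depended on single libraries, for the members as for the whole table. Without 6-month mouse 10, 6-month mouse 11 or 24-month mouse 4, 0 members passed, and of all genes 0, 1 and 0 passed. Without 24-month mouse 2, 2 members were called higher and 0 lower (of 30062 genes, 0.240% higher and 104 genes lower). Without 6-month mouse 17, 3 were called higher and 1 lower (of 32090 genes, 3.81% higher and 1252 genes lower). Without 24-month mouse 5, 8 were called higher and 4 lower (of 31275 genes, 14.0% higher and 3633 genes lower).

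**Figure D1:**
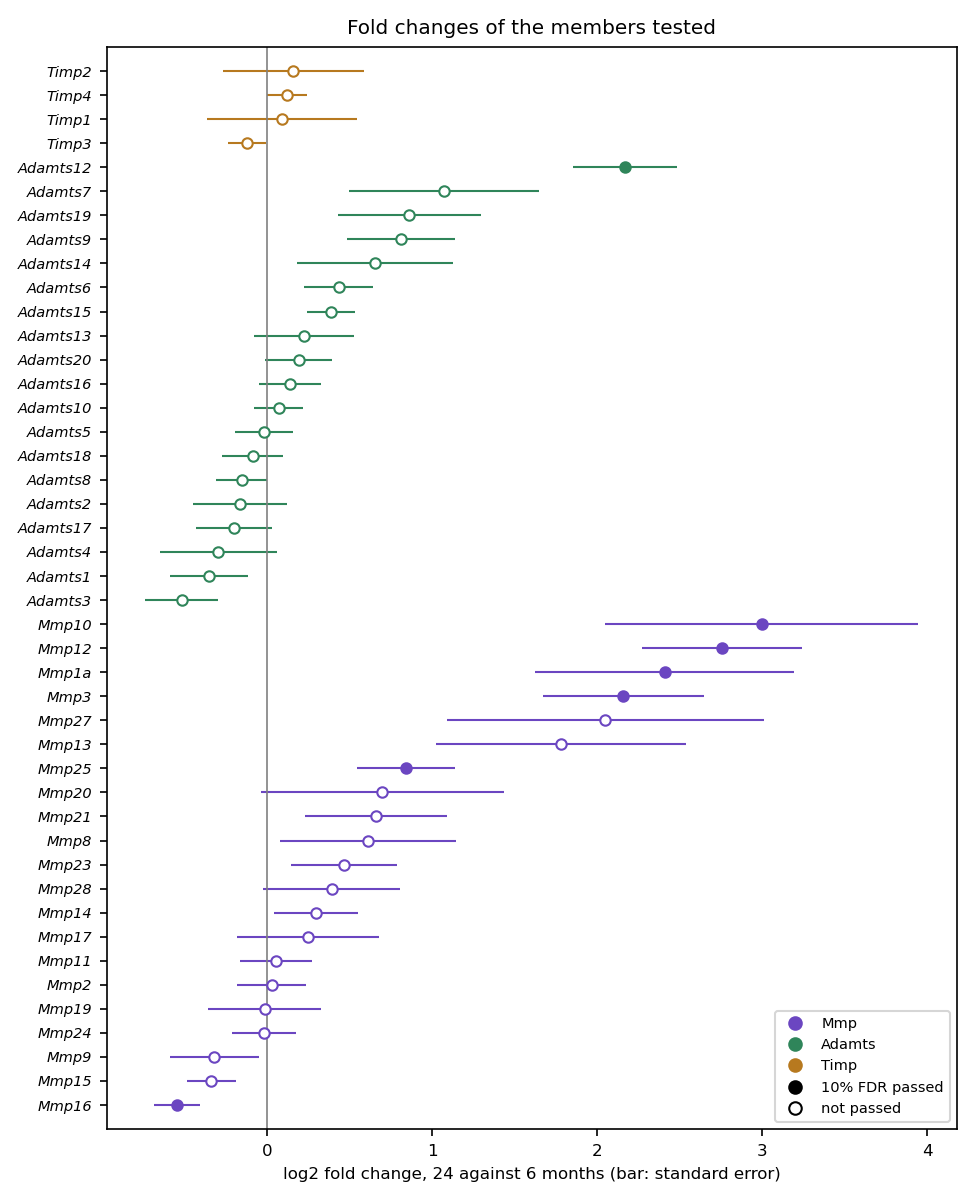
Log2 fold change (x axis, 24 against 6 months; bars are standard errors) of the 44 members tested, 1 row per gene, colored by family. Filled points passed 10% FDR: 6 lie at positive values, between 0.84 and 2.996, and Mmp16 lies at -0.55.

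Without a threshold, 30 of the 44 members had a higher fitted value at 24 months (background 58.4%), and the direction followed the level of the gene, among the members as in the whole table. Of the 13 members with 10 to 99 counts over the 6 libraries, all 13 had a higher fitted value at 24 months, and so had 86.0% of the 14883 genes of that level. The classes use the counts of both ages together, and 6 of the 13 (Mmp12, Mmp3, Mmp13, Mmp1a, Mmp27 and Mmp10) had under 10 counts at 6 months and reached the count minimum through the 24-month mice, so that their direction carries little information. Of the 16 members with at least 100 but under 1000 counts, 11 were fitted higher (66.2% of 6262 genes). Of the 15 members with at least 1000 counts, 6 were fitted higher (19.4% of 11760 genes). The median fold change was 0.20 for the 44 members, next to 0.15 for all genes tested, with medians of 0.47 for Mmp, 0.14 for Adamts and 0.10 for Timp genes. Between the ages, 8 members had every 24-month library above every 6-month library on TMM-scaled CPM (counts relative to the library total; background 20.0%), and 3 had every 24-month library below (background 16.2%). Scaling by library totals alone moved the median over all genes from 0.15 to 0.33. The share of higher genes among all calls at 10% FDR moved from 54.6% to 92.7%. With that scaling 8 members were called higher (12.5% of all genes) and 0 lower (323 of 32905 genes).

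**Figure D2:**
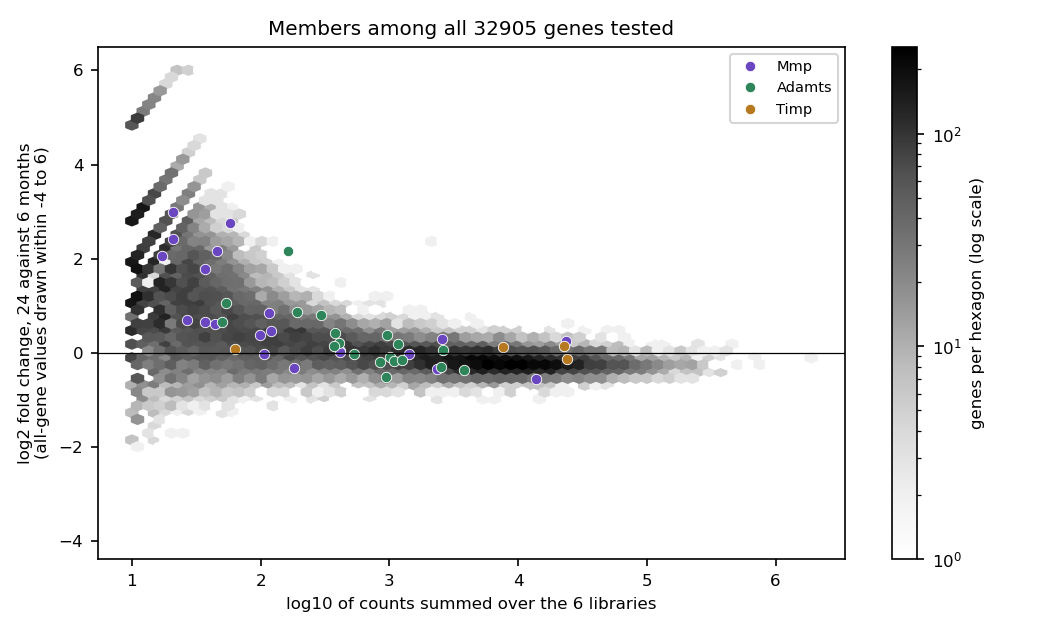
Log2 fold change (y axis, 24 against 6 months) against the log10 of the counts summed over the 6 libraries (x axis). Gray hexagons hold all 32905 genes tested and colored points the 44 members; the members of few counts lie above 0, as 86.0% of the genes with 10 to 99 counts do.

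Of the 6 members that rose, 4 lie in a group of 10 Mmp genes on chromosome 9, at positions 7272514 to 7699585 of GRCm38, which holds Mmp13, Mmp12, Mmp1b, Mmp3, Mmp1a, Mmp10, Mmp8, Mmp27, Mmp20 and Mmp7 in this order. All 4 had 10 to 99 counts over the 6 libraries. At that level 4 of 13 members (30.8%) and 17.7% of all 14883 genes rose. The 10 genes encode secreted collagenases, stromelysins, macrophage elastase, matrilysin and the enamel protease Mmp20, enzymes that most resting tissues make at low levels. Of the 46 members, 32 had at least 1 promoter in the RefSeq table of GRCm38.p6 (250 bases before to 50 after a start, 35 windows), among them all 10 genes of the chromosome 9 group. Of its promoters, those of the 4 members that rose are printed as examples. Most genes of the group share the marked sequence features, which the choice of members did not use. The promoter of Timp2, the Timp of highest level, is shown for contrast. Its printed stretch lies before the RefSeq start but inside the annotated gene, which spans positions 118301069 to 118355740 of chromosome 11. Mmp12 and Mmp7 each have a second window in the table, and the upstream window of Mmp12 and the downstream window of Mmp7 hold neither motif described below. The printed stretches are the 250 bases before the start, 5′ to 3′ on the strand of the gene: chr9:7347124-7347373 for the downstream start of Mmp12, chr9:7445572-7445821, chr9:7463891-7464140 and chr9:7502092-7502341 on the plus strand, and chr11:118355412-118355661 on the minus strand. Capitals mark TGANTCA, the letters of an AP-1 element, which read alike on both strands, and TATAAA, the letters of a TATA box, searched on both strands.
Mmp12: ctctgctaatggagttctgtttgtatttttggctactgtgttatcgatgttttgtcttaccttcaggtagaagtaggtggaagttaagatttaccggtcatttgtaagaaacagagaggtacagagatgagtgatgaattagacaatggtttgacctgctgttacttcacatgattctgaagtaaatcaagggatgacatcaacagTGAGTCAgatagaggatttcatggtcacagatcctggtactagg
Mmp3: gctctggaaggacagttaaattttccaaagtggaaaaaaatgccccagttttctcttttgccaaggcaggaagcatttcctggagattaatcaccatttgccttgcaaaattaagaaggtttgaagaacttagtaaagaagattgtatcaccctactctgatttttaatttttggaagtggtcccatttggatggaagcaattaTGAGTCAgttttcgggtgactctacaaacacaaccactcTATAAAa
Mmp1a: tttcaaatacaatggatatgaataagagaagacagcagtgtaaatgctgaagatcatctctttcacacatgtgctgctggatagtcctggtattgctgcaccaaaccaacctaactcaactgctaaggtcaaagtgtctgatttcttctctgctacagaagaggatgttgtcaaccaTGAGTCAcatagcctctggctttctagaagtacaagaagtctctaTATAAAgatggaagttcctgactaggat
Mmp10: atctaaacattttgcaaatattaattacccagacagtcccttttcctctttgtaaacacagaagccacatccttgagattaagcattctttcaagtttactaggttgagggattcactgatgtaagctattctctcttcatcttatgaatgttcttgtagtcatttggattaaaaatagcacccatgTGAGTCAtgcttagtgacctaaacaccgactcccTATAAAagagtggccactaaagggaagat
Timp2: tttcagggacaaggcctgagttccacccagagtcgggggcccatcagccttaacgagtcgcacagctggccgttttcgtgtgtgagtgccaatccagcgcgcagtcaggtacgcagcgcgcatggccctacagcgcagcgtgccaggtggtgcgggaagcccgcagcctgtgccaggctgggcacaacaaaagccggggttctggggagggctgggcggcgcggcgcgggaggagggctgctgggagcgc

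TGANTCA began 44 bases before the start in Mmp12, 46 in Mmp3, 73 in Mmp1a and 63 in Mmp10. TATAAA began 7 bases before the start in Mmp3, 28 in Mmp1a and 29 in Mmp10. The printed bases of Mmp12 hold no TATAAA, and the match counted for it in the whole window lies after the start. In the whole windows, TGANTCA was found in 8 of the 12 windows of the chromosome 9 group (8 of its 10 genes) and in 0 of the 23 windows of the other members, against 7.81% of all 32851 windows. TATAAA was found in 9 of the 12 windows (9 of the 10 genes) and in 2 of the 23 (Adamts1 and Mmp21), against 13.6% of all windows. The genes with TGANTCA included Mmp13 and Mmp20, which did not pass 10% FDR, and Mmp1b and Mmp7, which were not tested. These genes and Mmp8, which also did not pass, held TATAAA. The letters were thus not confined to the genes that rose. The median number of CpG pairs per window was 1 (range 0 to 7) in the chromosome 9 group, 20 (range 2 to 44) in the other members and 7 in all windows. These matches describe the letters of the windows. AP-1 is a dimer of Fos and Jun proteins, which Fos, Fosb and Junb encode among the 10 immediate early genes examined. Fos had 162.1, 202.2 and 76.4 TPM at 6 months and 202.7, 35.3 and 30.0 TPM at 24 months. Junb had 594.8, 745.4 and 367.5 against 1152, 251.9 and 159.6 TPM, and Fosb had 6.28, 6.49 and 5.50 against 11.3, 6.31 and 4.32 TPM. All 10 genes, Arc and Egr1 included, summed to 3116, 3813 and 1836 TPM at 6 months and to 4371, 957.4 and 728.8 TPM at 24 months. Of the 10 genes, 0 passed 10% FDR in either direction. Their part in the values of the chromosome 9 genes was not tested.

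Mmp12, the macrophage elastase, had 1, 3 and 3 counts at 6 months and 12, 22 and 17 counts at 24 months. All 24-month libraries lay above all 6-month libraries, and Mmp12 rose with a fold change of 2.76 (SE 0.48, adjusted p = 0.0518). With 7 counts at 6 months, Mmp12 reached the count minimum through the 24-month mice. Its call and lack of overlap therefore carry little information. The ratio of its summed counts per TMM-scaled library total was 7.07 (95% counting interval 3.19 to 18.5). Part of its exons (157 bases) is shared with Mmp1b on the opposite strand, which had 0, 1 and 1 counts at 6 months and 1 count in each 24-month mouse and was not tested.

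Mmp3, a stromelysin that also activates other proenzymes of the family, had 2, 2 and 4 counts at 6 months and 16, 12 and 10 counts at 24 months. The ages did not overlap, and Mmp3 rose with a fold change of 2.16 (SE 0.49, adjusted p = 0.0536). Its close relative Mmp10 had 1, 1 and 0 counts against 11, 6 and 2 counts. Mmp10 was higher in every 24-month mouse, most in mouse 2, and rose with a fold change of 2.996 (SE 0.95, adjusted p = 0.0795). The ratio of its summed counts per TMM-scaled library total was 9.22, with a counting interval of 2.22 to 81.6. Mmp1a, a collagenase gene that the annotation lists as a polymorphic pseudogene, had 1 count in each 6-month mouse and 9, 7 and 2 counts at 24 months. Again no libraries overlapped, and Mmp1a rose with a fold change of 2.41 (SE 0.78, adjusted p = 0.0837) and a ratio of 5.82 (counting interval 1.70 to 30.9). These intervals cover counting error only, since reads amplified by PCR are not independent molecules. Mmp3, Mmp10 and Mmp1a also reached the count minimum through the 24-month mice. Their calls, intervals and lack of overlap therefore carry little information.

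The other genes of the group did not pass 10% FDR. Mmp13, a collagenase, had 1, 1 and 6 counts at 6 months and 17, 5 and 7 counts at 24 months, with a fold change of 1.78 (SE 0.76, adjusted p = 0.147). Mouse 17 overlapped the 24-month mice. Mmp8, the neutrophil collagenase, had 6, 8 and 3 against 6, 15 and 6 counts, and Mmp20 had 2, 3 and 5 against 3, 12 and 2 counts. In both, 24-month mouse 4 alone stood above the 6-month mice, and the fold changes were 0.61 (SE 0.54) for Mmp8 and 0.70 (SE 0.74) for Mmp20. The 6 neutrophil markers, none of which passed 10% FDR, summed to 6.82, 9.19 and 9.96 TPM at 6 months and to 2.89, 16.5 and 16.1 TPM at 24 months, with S100a9 at 0 in mouse 2 and Lcn2 at 0 in mouse 11. Their part in the level of Mmp8 was not tested. Mmp27 had 2, 1 and 0 against 6, 7 and 1 counts, a ratio of 4.53 per TMM-scaled library total (counting interval 1.26 to 24.6). Mmp7, the matrilysin, had 0, 2 and 1 against 2, 4 and 0 counts and was not tested.

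Outside the group, Adamts12, a secreted protease that cleaves cartilage oligomeric matrix protein, on chromosome 15 (11064790 to 11349231), had 51, 49 and 35 counts in the 24-month mice against 6, 12 and 11 in the 6-month mice. The smallest 24-month count was well above the largest 6-month count, and Adamts12 rose with a fold change of 2.17 (SE 0.31, adjusted p = 0.04995). It had the smallest p of the 44 members. Mmp25, a membrane-anchored Mmp best known from leukocytes, had 16, 14 and 11 against 29, 24 and 23 counts. Its ages did not overlap, and it rose with a fold change of 0.84 (SE 0.30, adjusted p = 0.0995). Adamts9, a versicanase, had 19, 52 and 35 against 69, 77 and 44 counts. Mouse 11 lay above mouse 5, and its fold change of 0.81 (SE 0.33, adjusted p = 0.133) did not pass. The exons of Adamts9 share 1381 bases with A730049H05Rik and 424 with Gm15737 on the opposite strand.

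These low counts were set beside those of the 1412 olfactory receptor genes, which are expressed mainly in the olfactory epithelium, as a measure of how many counts each library put on genes of little or no expression. The study reported sensory perception as the main process among its up-regulated genes and concluded that aging triggers the expression of such genes. Whether the counts on olfactory receptor genes reflect expression was not tested here. As CPM per exonic kilobase, here from library totals without TMM scaling, the olfactory receptor genes had a density of 0.0217, 0.0238 and 0.0241 at 6 months and of 0.0995, 0.0808 and 0.0581 at 24 months, a ratio of 3.42 between the ages. The 10 Mmp genes of chromosome 9 together had a density of 0.0185, 0.0243 and 0.0266 at 6 months and of 0.109, 0.109 and 0.0565 at 24 months, a ratio of 3.94. Both sets were low in all 6-month mice and highest in 24-month mice 2 and 4. Within the group, Mmp3 at 24 months (0.301, 0.206 and 0.169) stood above the olfactory receptor density of the same library in all 3 mice. It also stood above that density in all 6-month mice (0.0332, 0.0304 and 0.0638). At 24 months Mmp12 (0.0562, 0.0940 and 0.0716) stood above it in mice 4 and 5 and Mmp10 (0.217, 0.108 and 0.0354) in mice 2 and 4. Mmp1a (0.151, 0.107 and 0.0301) did so in mice 2 and 4 as well. Mmp25, outside the group, had 0.0901, 0.0723 and 0.0596 at 6 months and 0.185, 0.140 and 0.132 at 24 months. It stood above the olfactory receptor density of the same library in all 6 mice. Adamts12 had a density of 0.0164, 0.0301 and 0.0289 at 6 months, near that of the olfactory receptor genes, and of 0.158, 0.139 and 0.0977 at 24 months, above it in all 3 mice. These single genes were picked because they rose, and the spread between single olfactory receptor genes was not examined. A place above the pooled density therefore carries little information.

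When this density was taken from every gene in proportion to its exonic length, an alternative chosen after seeing the data, 0 members passed 10% FDR in either direction, and of the 25252 genes then tested 25 were higher and 3 lower. Adamts12 then had a fold change of 3.44 (adjusted p = 0.192), Mmp3 one of 3.03 (adjusted p = 0.262) and Mmp25 one of 0.47 (adjusted p = 0.669). Mmp12, Mmp10 and Mmp1a were left with too few counts to be tested. Since every 24-month library had the higher density on genes of little or no expression, the rise of the 6 members and this difference between the libraries cannot be told apart here.

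**Figure D3:**
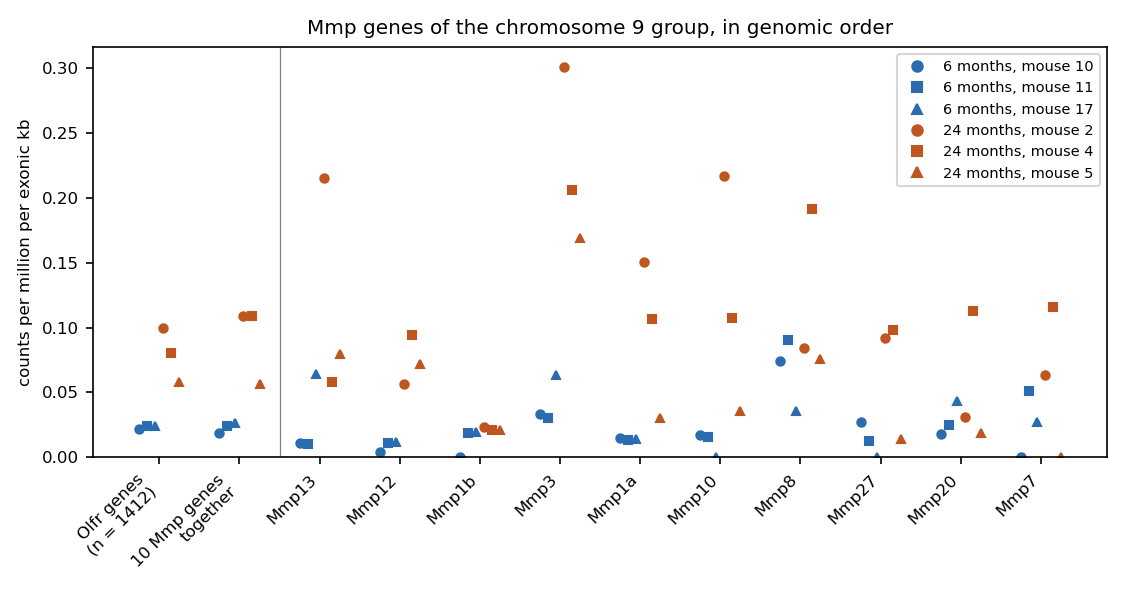
Density of counts (y axis, CPM per exonic kilobase) in each of the 6 mice, for 1412 olfactory receptor (Olfr) genes, for the 10 Mmp genes of chromosome 9 together and for each of these genes in genomic order. The olfactory receptor genes reach 0.0581 to 0.0995 at 24 months and the 10 genes together 0.0565 to 0.109, all above the 6-month mice, and Mmp3 is the highest of the group in mouse 2, at 0.301.

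Among the inhibitors, Timp2 had the highest mean TPM of all 46 members. Timp2 both inhibits Mmp enzymes and, bound to Mmp14, takes part in the activation of pro-Mmp2. It had 47.2, 71.8 and 174.5 TPM at 6 months and 163.7, 119.5 and 70.8 TPM at 24 months. The ages overlapped throughout, with mouse 10 lowest and mouse 17 highest although both were of 6 months, and the fold change was 0.16 (SE 0.43, adjusted p = 0.826). Mmp17, a protease held at the cell surface by a lipid anchor, was second in mean TPM and ordered the mice alike, apart from the close mice 5 and 11, with 26.8, 43.2 and 104.2 TPM at 6 months and 102.2, 75.3 and 45.8 TPM at 24 months. Its fold change was 0.25 (SE 0.43, adjusted p = 0.723).

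On TMM-scaled CPM the highest library was 3.66 times the lowest for Timp2 and 3.86 times for Mmp17. Of the 11763 genes with a mean above 5 CPM, 1.37% and 1.19% varied at least as much. By contrast the ratio of Mmp17 to Timp2 TPM stayed between 0.567 and 0.647, with 0.567, 0.601 and 0.597 at 6 months and 0.624, 0.630 and 0.647 at 24 months. This pair, whose genes lie on chromosomes 5 and 11, was singled out after its values were seen and is described without a test.

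**Figure D4:**
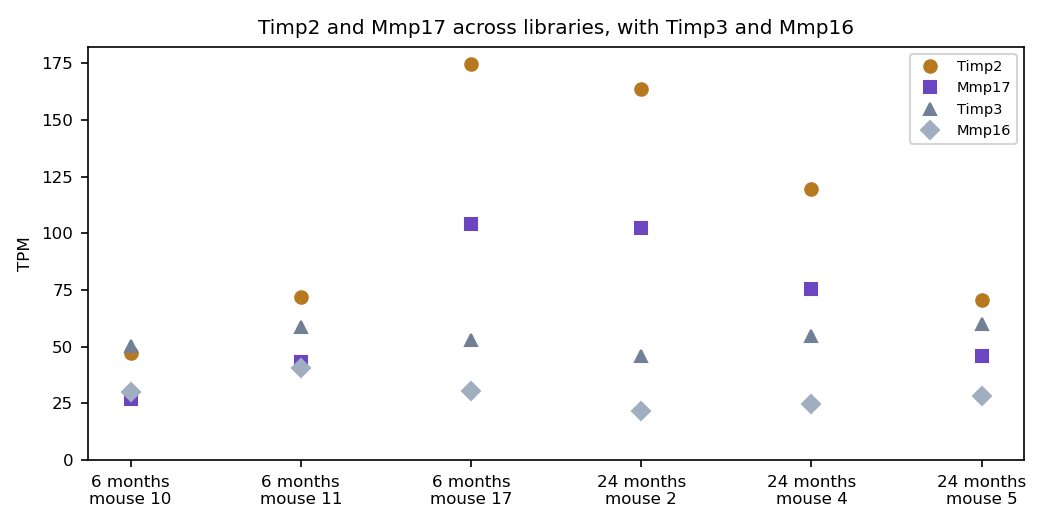
TPM (y axis) of Timp2, Mmp17, Timp3 and Mmp16 in each of the 6 mice (x axis). Timp2 and Mmp17 are lowest in 6-month mouse 10 (47.2 and 26.8 TPM) and highest in 6-month mouse 17 (174.5 and 104.2 TPM), whereas Timp3 stays between 45.9 and 59.9 TPM.

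Timp3, a matrix-bound inhibitor of Mmp and Adamts enzymes, had 50.5, 58.5 and 52.8 TPM at 6 months and 45.9, 54.7 and 59.9 TPM at 24 months. The ages overlapped, with a fold change of -0.12 (SE 0.11, adjusted p = 0.479) that turned to 0.06 with library totals. Timp4, an inhibitor made in brain and heart, had 21.8, 19.7 and 24.6 TPM at 6 months and 24.5, 24.0 and 29.3 TPM at 24 months. Mouse 5 was highest and mouse 11 lowest, and the fold change was 0.12 (SE 0.12, adjusted p = 0.526). Timp1, an inhibitor induced by inflammation in many tissues, was low, with 0.893, 0.808 and 1.94 TPM at 6 months and 0.926, 1.86 and 1.39 TPM at 24 months. Its fold change was 0.09 (SE 0.46, adjusted p = 0.912), with mouse 17 highest and mouse 11 lowest. Each of these 3 genes lies inside a synapsin gene on the opposite strand, Timp3 in Syn3 (1733 shared exonic bases), Timp4 in Syn2 (90) and Timp1 in Syn1 (0).

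Of the transmembrane Mmps, Mmp16 was the member that fell. This enzyme activates pro-Mmp2 and sheds cell surface proteins, and its gene spans positions 17852893 to 18119145 of chromosome 4. It had 30.0, 40.5 and 30.4 TPM at 6 months and 21.6, 24.9 and 28.1 TPM at 24 months. All 24-month mice lay below all 6-month mice, and the fold change was -0.55 (SE 0.14, adjusted p = 0.0583). It did not pass 10% FDR with library totals (-0.36, adjusted p = 0.124), with the stricter filterByExpr filter (-0.44, adjusted p = 0.124) or after subtraction of the olfactory receptor density (-0.40, adjusted p = 0.30). The 8 neuron markers summed to 6159, 5621 and 5760 TPM at 6 months and to 4675, 4992 and 5787 TPM at 24 months, with 2 of 8 (Syt1 and Camk2a) lower at 10% FDR, next to 22.5% of all genes with at least 1000 counts. Their part in the fall of Mmp16 was not tested.

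Mmp15 had 12.8, 13.0 and 13.7 CPM at 6 months and 9.03, 9.48 and 12.6 CPM at 24 months, on the TMM scale. The ages did not overlap on that scale, though mouse 5 was close to the 6-month mice, and the fold change of -0.34 (SE 0.15, adjusted p = 0.154) did not pass. On the TPM scale, mouse 5 (8.91) lay above mice 10 and 11 (8.30 and 8.49). Mmp14, the main activator of pro-Mmp2, had 4.11, 6.84 and 9.60 TPM against 9.22, 10.4 and 7.68 TPM. Mouse 10 was far below the others, and the fold change was 0.29 (SE 0.26, adjusted p = 0.453). Mmp24, a neuronal membrane-type Mmp, had 4.45, 5.87 and 5.93 TPM against 7.35, 5.31 and 4.68 TPM, with a fold change of -0.02 (SE 0.19). It shares 637 exonic bases with BC029722 on the opposite strand. Mmp23, a small transmembrane protease, had 0.678, 0.920 and 0.690 TPM against 1.36, 1.32 and 0.765 TPM, with a fold change of 0.47 (SE 0.32, adjusted p = 0.341).

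The gelatinases and the stromelysin-like Mmp11 were at a few TPM. Mmp2, a gelatinase of mesenchymal and vascular cells, had 2.12, 1.98 and 2.33 TPM against 2.51, 2.74 and 1.82 TPM (fold change 0.03, SE 0.21). Mmp9, the gelatinase linked to synaptic plasticity and leukocytes, had 1.31, 0.840 and 0.912 TPM against 0.730, 0.932 and 0.980 TPM, with a fold change of -0.32 (SE 0.27, adjusted p = 0.438). Mmp11 had 1.88, 2.88 and 2.98 TPM against 3.17, 2.89 and 2.62 TPM (fold change 0.05, SE 0.22). In all 3, libraries of both ages overlapped and the difference did not pass 10% FDR.

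**Figure D5:**
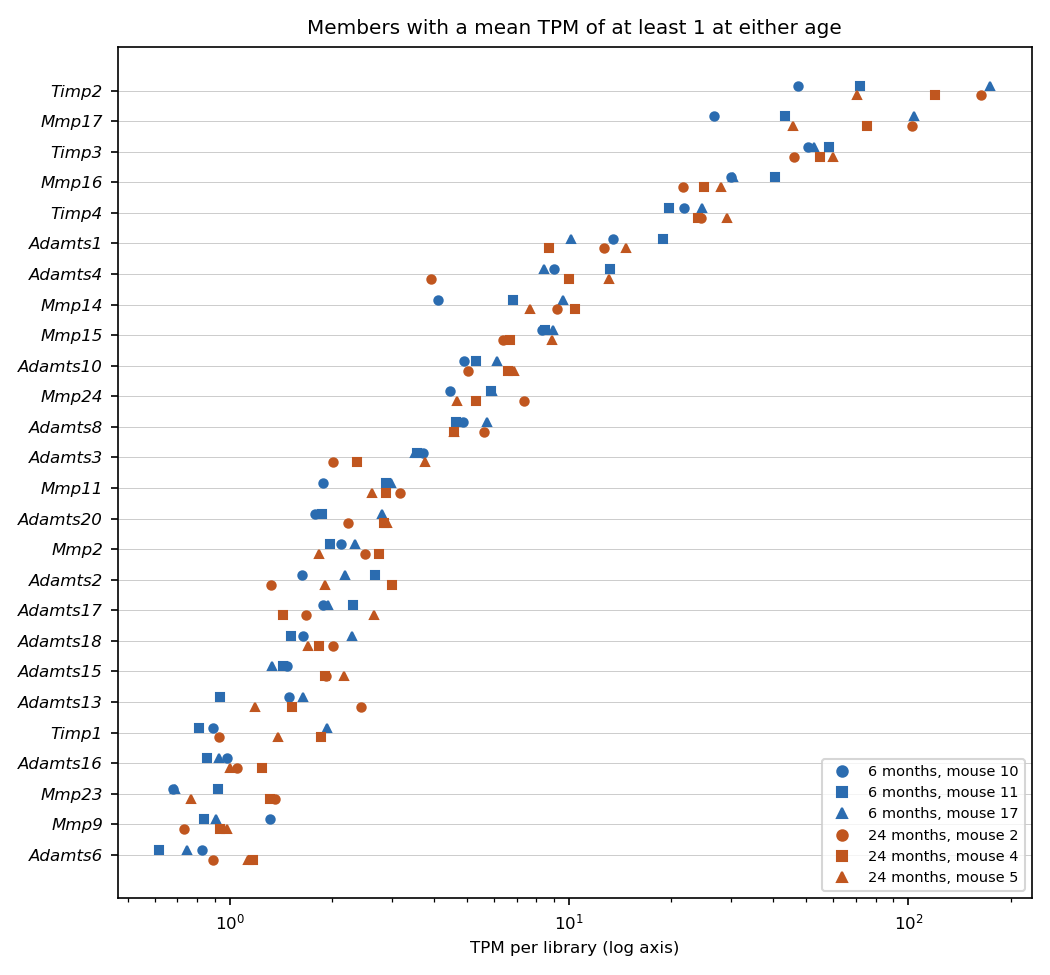
TPM per mouse (x axis, log scale) of the 26 members with a mean of at least 1 TPM at either age, ordered by mean TPM. Blue symbols are 6-month mice and orange symbols 24-month mice; Timp2 and Mmp17 spread widely within each age, and Mmp16 is the gene whose 24-month mice (21.6 to 28.1 TPM) all lie below its 6-month mice (30.0 to 40.5 TPM).

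The Adamts enzymes that cleave aggrecan, brevican and versican were led by Adamts1 and Adamts4. Adamts1 had 13.5, 18.9 and 10.2 TPM at 6 months and 12.6, 8.73 and 14.7 TPM at 24 months. The ages overlapped, with a fold change of -0.35 (SE 0.24, adjusted p = 0.331). Adamts4, which oligodendrocytes express in the brain, had 9.001, 13.2 and 8.43 TPM against 3.91, 9.97 and 13.1 TPM. Mouse 2 was far below all others, mice 4 and 5 lay within the range of the 6-month mice, and the fold change was -0.30 (SE 0.35, adjusted p = 0.590). The 6 oligodendrocyte markers summed to 1683, 2144 and 1357 TPM at 6 months and to 800.3, 1898 and 2484 TPM at 24 months, also with mouse 2 lowest, and their part in the value of Adamts4 was not tested. Without mouse 2 the fold change of Adamts4 was 0.07.

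Adamts8 had 4.86, 4.62 and 5.71 TPM against 5.62, 4.58 and 4.58 TPM, with a fold change of -0.15 (SE 0.15). Adamts15 had 1.48, 1.43 and 1.33 TPM at 6 months and 1.92, 1.91 and 2.17 TPM at 24 months. Here every 24-month mouse lay above every 6-month mouse, but its fold change of 0.39 (SE 0.14, adjusted p = 0.113) did not pass. It passed with library totals (0.58, adjusted p = 0.0604) and with the filterByExpr filter (0.50, adjusted p = 0.0938). Adamts20, a relative of Adamts9, had 1.78, 1.87 and 2.81 TPM against 2.23, 2.84 and 2.90 TPM, with a fold change of 0.19 (SE 0.20).

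Of the procollagen proteinases, Adamts3 also cleaves and inactivates reelin, the signalling protein of cortical layering and synapses. It had 5.74, 5.47 and 5.40 CPM at 6 months and 2.87, 3.38 and 5.35 CPM at 24 months, on the TMM scale. Mice 2 and 4 were far below the 6-month mice and mouse 5 was just below them, and the fold change of -0.52 (SE 0.22, adjusted p = 0.147) did not pass. On the TPM scale mouse 5 (3.75) was the highest of the 6 mice. Without mouse 5 the fold change was -0.82 (adjusted p = 0.0335). Adamts2 had 1.63, 2.67 and 2.18 TPM against 1.32, 3.004 and 1.90 TPM, with both ages covering the same range (fold change -0.17, SE 0.28).

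The remaining Adamts genes that reached a mean of 1 TPM at either age overlapped between the ages on TMM-scaled CPM, whereas on the TPM scale every 24-month mouse was above every 6-month mouse in Adamts6 and Adamts16. Adamts10, which acts on fibrillin microfibrils, had 4.90, 5.30 and 6.11 TPM against 5.04, 6.60 and 6.87 TPM (fold change 0.07, SE 0.15). Its relative Adamts6 had 0.829, 0.618 and 0.745 TPM against 0.888, 1.17 and 1.13 TPM, with a fold change of 0.43 (SE 0.21, adjusted p = 0.189) and an adjusted p of 0.0956 with library totals. Adamts17, which also acts on microfibrils, had 1.88, 2.31 and 1.94 TPM against 1.68, 1.43 and 2.67 TPM, with a fold change of -0.20 (SE 0.23). Mouse 5 had the highest value, and without it the fold change was -0.51 (adjusted p = 0.0940). Adamts18 had 1.64, 1.51 and 2.28 TPM against 2.01, 1.83 and 1.69 TPM (fold change -0.09, SE 0.18). Its relative Adamts16 had 0.978, 0.855 and 0.928 TPM against 1.05, 1.24 and 0.998 TPM (fold change 0.14, SE 0.19). Both differences were below their standard errors. Adamts13, the plasma protease of von Willebrand factor, had 1.496, 0.937 and 1.64 TPM against 2.43, 1.52 and 1.18 TPM, with a fold change of 0.22 (SE 0.30). The other 7 members, Adamts5, Adamts7, Adamts14, Adamts19, Mmp19, Mmp21 and Mmp28, had mean levels of 0.159 to 0.901 TPM, fold changes of -0.02 to 1.07 and adjusted p of 0.204 to 0.980, and 5 of the 7 were fitted higher.

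Summed over the families, the Mmp genes reached 81.8, 113.7 and 168.6 TPM at 6 months and 160.8, 136.8 and 104.7 TPM at 24 months. Mmp17 made up 32.8% to 63.5% of these sums. The mean was 121.4 ± 43.9 TPM (SD, n = 3) at 6 months and 134.1 ± 28.1 TPM at 24 months. Without Mmp17 it was 63.3 ± 7.85 TPM at 6 months and 59.7 ± 1.54 TPM at 24 months. The Timp genes summed to 120.5, 150.8 and 253.8 TPM against 235, 200 and 161.4 TPM, of which Timp2 made up 39.2% to 69.6%, with a mean of 175.0 ± 69.9 TPM at 6 months and 198.8 ± 36.8 TPM at 24 months. Without Timp2 they had a mean of 77.2 ± 3.43 TPM at 6 months and 80.8 ± 9.64 TPM at 24 months. The Adamts genes had a mean of 52.7 ± 6.06 TPM at 6 months and 51.8 ± 7.25 TPM at 24 months. In the full sums of each family the ages overlapped and the means differed by less than the SD at 6 months. Without Timp2 the Timp means differed by more than the SD at 6 months and by less than that at 24 months, and the ages overlapped. Without mouse 17, every 24-month Timp sum was above both remaining 6-month sums. The ratio of the summed TPM between the ages was 1.105 for Mmp, 1.136 for Timp and 0.984 for Adamts genes. On TMM-scaled CPM it was 0.983, 1.020 and 0.951, so that the direction of the Mmp sum depended on the scaling.

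Genes that act with these enzymes were read from 3 further lists. Of all 32905 genes tested, 10.0% rose and 8.33% fell at 10% FDR. Of 7 Adamts-like genes, which lack the protease domain, 1 rose and 0 fell, namely Papln (papilin), which had 13, 16 and 17 counts at 6 months and 26, 37 and 23 counts at 24 months (fold change 0.85, SE 0.29, adjusted p = 0.0908). Of 14 genes of lecticans and the perineuronal matrix, 0 rose and 1 fell: Tnc, the matrix glycoprotein tenascin C, had 2.32, 1.71 and 2.81 TPM against 1.13, 1.12 and 1.73 TPM (fold change -0.89, SE 0.24, adjusted p = 0.0616). Of 24 genes of activation, clearance and further inhibitors, 1 rose and 3 fell. Plg, which encodes plasminogen, the precursor of an Mmp-activating protease, rose from 1, 1 and 2 counts to 15, 8 and 5 counts (fold change 2.66, SE 0.69, adjusted p = 0.0588). Its activator Plat (tissue plasminogen activator) had 27.2, 33.1 and 32.0 TPM against 25.9, 24.1 and 23.8 TPM and fell (fold change -0.43, SE 0.10, adjusted p = 0.0553).

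Serpini1, the neuronal inhibitor of that activator, had 263.0, 262.9 and 205.3 TPM at 6 months and 169.8, 221.4 and 209.5 TPM at 24 months. Mice 4 and 5 lay above mouse 17 on this scale, and Serpini1 fell with a fold change of -0.40 (SE 0.13, adjusted p = 0.0858). Adam10, a membrane protease that sheds cell surface proteins and is inhibited by Timp1 and Timp3, had 108.8, 96.2 and 93.3 TPM against 72.0, 85.5 and 91.8 TPM. All 24-month mice lay below all 6-month mice, and it fell with a fold change of -0.37 (SE 0.11, adjusted p = 0.0747). The medians over the 3 lists were -0.12 (Adamts-like), -0.11 (lecticans) and -0.16 (activation and clearance), next to 0.15 for all genes tested and -0.19 for those with at least 1000 counts. Plg and Papln are low in counts, as the Mmp genes that rose are, and Plat, Serpini1 and Adam10 are among the genes with at least 1000 counts, of which 22.5% fell at 10% FDR. Of all genes with 10 to 99 counts, the level of Plg, 17.7% rose. Of those with 100 to 999 counts, the level of Papln and Tnc, 8.99% rose and 1.39% fell.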

How the data were processed

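RNA-seq counts and TPM of 6 cortices were analysed. Per the submitters' processing notes and the study's methods, reads (single-end) were checked with FastQC 0.11.8, trimmed with Trim Galore 0.6.4, mapped to GRCm38 with STAR 2.7.3a and counted with featureCounts of Subread 2.0.0, without strand and with multi-mapping reads split. For every gene of each mouse the authors deposited a count and a TPM value computed from it, and all deposited counts were whole numbers.

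Genes whose counts summed to 10 or more were fitted in edgeR 4.0.16 (R 4.3.3) with TMM scaling, the quasi-likelihood test and no covariate, with Benjamini-Hochberg adjustment over all genes tested. DESeq2 1.42.0, the likelihood ratio test, other scalings and filters and each mouse left out were alternatives, and subtraction of the olfactory receptor density was added after seeing the data. The fit was tested on simulated data, with changes placed only in genes of higher counts than any member that rose. The simulation therefore does not cover the calls of those members. Counting intervals are exact (95%). The members, gene lists and the 10% rule were chosen with earlier results of these data known. Members with a mean of at least 1 TPM at either age or an unadjusted p under 0.05 are given per mouse, the others by range, with the chromosome 9 genes named; of the 3 further lists, genes past 10% FDR are named. Positions are from GENCODE vM21, and promoters from RefSeq GRCm38.p6. Other steps ran in Python 3.11.15 (scipy 1.17.1, pandas 2.3.3).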

Additional observations from a re-analysis of the deposited data

How the results depend on the processing

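No paired analysis was possible because the ages share no mouse number. The 0 members at 1% FDR became 3 with the likelihood ratio test, 1 with DESeq2 and 1 without a count filter. The 6 members higher at 10% FDR became 3 with DESeq2 (4.07% of all genes higher) and 0 after subtraction of the olfactory receptor density (0.099%). With a mouse left out they became 0 to 8 (0% to 14.0% of all genes higher). The 1 lower member became 0 with library totals (323 of 32905 genes lower), with filterByExpr (430 of 20490) and after subtraction (3 of 25252). With a mouse left out it became 0 to 4 (from 0 of 32238 to 3633 of 31275 genes lower). The 3 members with every 24-month library below every 6-month library became 1 with library totals and 1 on the TPM scale. Fold changes changed sign with library totals for Adamts18 (0.10), Adamts2 (0.019), Adamts8 (0.040), Mmp24 (0.17) and Timp3 (0.064), with filterByExpr for Adamts18 (0.028) and Mmp24 (0.10), without a filter for Mmp24 (0.019), and after subtraction for Mmp24 (0.10), Timp3 (0.031) and Mmp8 (-0.035). With a mouse left out they ranged from -0.012 to 0.20 for Adamts10, -0.11 to 0.43 for Adamts13, -0.51 to 0.018 for Adamts17, -0.16 to 0.11 for Adamts18, -0.49 to 0.084 for Adamts2, -0.66 to 0.070 for Adamts4, -0.13 to 0.18 for Mmp11, -0.093 to 0.98 for Mmp17, -0.055 to 0.18 for Mmp2, -0.37 to 1.10 for Mmp20, -0.22 to 0.11 for Mmp24, -0.13 to 0.60 for Timp1 and -0.17 to 0.88 for Timp2. None of these passed 10% FDR in the analysis with all 6 mice. With a mouse left out, the ratio of the summed TPM between the ages ran from 0.950 to 1.37 for Mmp, 0.983 to 1.47 for Timp and 0.908 to 1.04 for Adamts genes, so its direction changed in each family, and without mouse 17 the Timp sums no longer overlapped. Apart from the mouse left out, 219 fold changes kept their direction and side of the threshold, 13 lost and 5 gained a call, and 11 changed sign. The cause was not tested. Members with a handful of counts per library are limited by depth.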
